A study of Rattus norvegicus with 10 samples.

Results

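Placebo-treated rats with collagen-induced arthritis (CIA) were compared 1 h after therapy with CIA rats sampled before any therapy, by sequencing the small RNAs of the tissue. The 4 libraries of this comparison, out of 10 in the series, were taken from the labels: 2 libraries before therapy (CIA_B) and 2 libraries 1 h after placebo (PLA_E). All 359 miRNAs with at least 1 cpm (reads scaled to a common library size, as described below) in at least 5 of the 10 libraries were tested, and another 364 of the 723 mature miRNAs in the files were too low for this filter. The other groups, also of 2 libraries each, are 1 h after mechanical stimulation (MS_E) and 34 days after placebo (PLA_A) or stimulation (MS_A). The comparison addresses what the tissue looks like shortly after the control treatment, before any stimulation is considered.

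All groups consisted of female Wistar rats immunized with bovine type II collagen in Freund's adjuvant, which raises an arthritis of the paws, so CIA_B animals were arthritic and untreated. PLA_E animals received in addition a peritoneal injection of sterile saline, the placebo of the methotrexate arm of the study. The PLA animals were anaesthetized with ether for blood sampling, all animals were shaved, and tissue was taken at sacrifice from around the points that were needled in the stimulated arm. Tissue of PLA_E was thus taken away from the injected site, and before and after are different animals. The study describes deep general anaesthesia before sacrifice without setting CIA_B apart, and does not name the agent used for CIA_B. The other group sampled at 1 h, MS_E, was needled and not injected, and no untreated group was sampled at 1 h in these libraries. The injection, any difference in anaesthesia and the time of sampling thus cannot be told apart in PLA_E against CIA_B. The age of the animals is not given in the sources used here. The labels name sub-epidermal muscle, the study describes subcutaneous tissue including muscle, and the series text mentions blood once. The muscle miRNAs miR-133a-3p and miR-1-3p were among the abundant miRNAs of all 4 libraries, and the liver miRNA miR-122-5p was counted 1 and 0 times in CIA_B and 7 and 2 times in PLA_E. Nothing in the labels says whether the 2 libraries of a group come from 1 animal each, so the p-values measure only the spread between these libraries.

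miRNAs are short RNAs that guide Argonaute proteins to messages with a site complementary to the seed, bases 2 to 8 of the miRNA, and so lower the output of these messages. Several of them are made in few cell types and serve as markers, such as miR-1, miR-206 and miR-133 in muscle fibres, miR-208b and miR-499 in slow fibres, miR-142 and miR-223 in leukocytes and miR-451 in red cells. Others are induced in injured or inflamed tissue, among them miR-21, miR-146 and miR-147, whereas the p53 target miR-34a is raised by cellular stress. Mature miRNAs are stable, and their level follows transcription with a delay.

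Of the 359 tested miRNAs, 324 matched a RefSeq entry in a table of the GRCr8 assembly. The sequences below are those of the miRNAs to which the results refer most, 5′ to 3′, with the seed in capitals. miR-672-5p and miR-539-3p passed the thresholds of the study, and miR-381-3p has the seed of miR-539-3p.
miR-672-5p: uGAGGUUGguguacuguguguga
miR-539-3p: cAUACAAGgguaauuucuuuuc
miR-381-3p: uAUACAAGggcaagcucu
The next 3 share a seed, that of the miR-34 family.
miR-34a-5p: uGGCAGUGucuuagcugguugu
miR-34c-5p: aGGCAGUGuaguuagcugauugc
miR-449a-5p: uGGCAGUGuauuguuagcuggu
The slow-fibre miRNAs have related seeds, which begin with the same letters UAAGAC.
miR-208b-3p: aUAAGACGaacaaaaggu
miR-499-5p: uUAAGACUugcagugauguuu
miR-184, miR-483-3p and miR-10b-5p are shown for their separation between the groups, and miR-29a-3p, miR-29b-3p and miR-29c-3p as a family of 1 seed.
miR-184: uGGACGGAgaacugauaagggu
miR-483-3p: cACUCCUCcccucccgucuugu
miR-10b-5p: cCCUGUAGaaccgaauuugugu
miR-29a-3p: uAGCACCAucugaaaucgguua
miR-29b-3p: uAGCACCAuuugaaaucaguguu
miR-29c-3p: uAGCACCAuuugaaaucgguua

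The libraries held 1513799 and 6385154 reads on miRNAs in CIA_B replicates 1 and 2, and 5277306 and 3725355 in PLA_E. All levels are cpm after TMM scaling (factors 0.763 and 1.07 in CIA_B, 1.41 and 0.973 in PLA_E). A count of 3 reads, the floor used for a level of 0, corresponded to 2.60 and 0.441 cpm in CIA_B and to 0.402 and 0.828 cpm in PLA_E, for counting error only. Levels of a few cpm in CIA_B replicate 1 therefore rest on a handful of reads. The libraries also differed within each group in their muscle miRNAs. miR-1-3p stood at 104864 and 10115 cpm in CIA_B and at 90887 and 11313 cpm in PLA_E, and miR-206-3p at 14925 and 1867 cpm and at 15857 and 1276 cpm. Replicate 1 of both groups was the library with much miR-1-3p and replicate 2 the one with little, and the groups overlapped completely. Among the other groups MS_E replicate 1 stood apart, with epithelial miRNAs summing to 454 cpm and between 33.7 and 141 cpm in the other 9 libraries. It enters the test of PLA_E against CIA_B through the filter, the TMM scaling and the shared spread. It is also 1 of the 2 libraries of MS_E in each test of MS_E against PLA_E. Without the 6 libraries of the other groups in the fit, 6 miRNAs passed the study's criterion, in place of the 2 given below. Since whole tissue was sampled, fewer cells of a type and less RNA per cell cannot be told apart in any level below.

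The libraries of placebo at 1 h and of before therapy differed from each other by no more than the libraries within PLA_E did. The median absolute difference over the 359 miRNAs, in log2(cpm + 1), was 0.599 between the CIA_B libraries and 0.698 between the PLA_E libraries. It was 0.604 between replicates 1 of the 2 groups, 0.593 and 0.591 for the crossed pairs, and 0.318 between replicates 2. The most alike of the 6 pairs was thus PLA_E replicate 2 with CIA_B replicate 2, from different groups, in which 23 miRNAs (6.41%) differed more than 2-fold. In the other 3 pairs across the groups 29.2% of the miRNAs differed that much between replicates 1, and 27.0% and 27.3% in the crossed pairs. Within the groups 26.5% did in CIA_B and 32.3% in PLA_E.

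**Figure D1:**
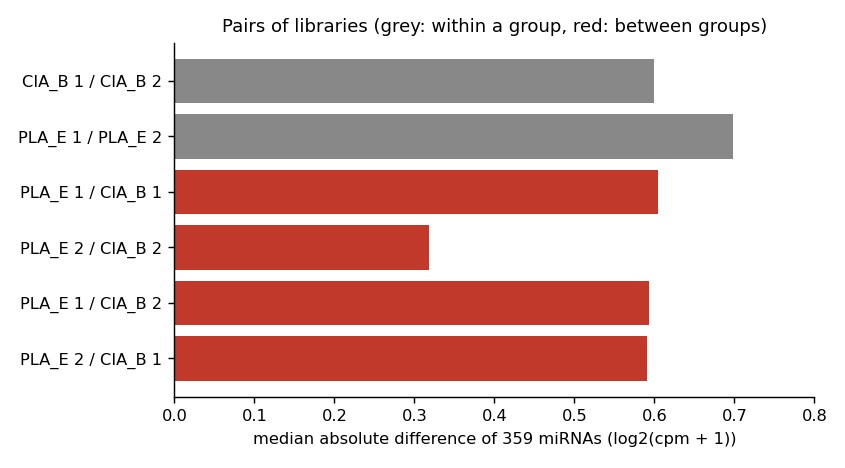
Median absolute difference of the 359 tested miRNAs, in log2(cpm + 1), for each of the 6 pairs of the 4 libraries (grey, both of 1 group; red, 1 of each group). The bar of PLA_E replicate 2 with CIA_B replicate 2, at 0.318, is the shortest, and the other 5 lie between 0.591 and 0.698.

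By the quasi-likelihood test of edgeR with all 10 libraries in the fit, 2 of the 359 miRNAs (0.557%) passed the study's criterion, which takes miRNAs past 2-fold with p below 0.05 before adjustment, 1 higher and 1 lower in PLA_E. None passed at an adjusted p under 0.05, where edgeR gave a smallest adjusted p of 0.994, and limma-voom and DESeq2 gave 0 as well. The count rested on single libraries, with 1 miRNA passing when CIA_B replicate 1 was left out, 7 when CIA_B replicate 2 was, 1 when PLA_E replicate 1 was and 9 when PLA_E replicate 2 was. With TMM replaced by library size alone, 4 passed, all higher in PLA_E. An unadjusted p under 0.05 was likewise reached by 2 miRNAs, and an unadjusted p under 0.1 by 15, 11 higher and 4 lower. The fitted log2 fold changes had a median of 0.07 and quartiles of -0.27 and 0.40, with 198 miRNAs higher and 161 lower in PLA_E. Their standard errors had a median of 0.66 on the log2 scale, so the 95% interval lay within 2-fold in both directions for 6 miRNAs (1.67%) and within 4-fold for 200 (55.7%). Changes of up to 2-fold were thus not detectable for nearly all miRNAs. An exact two-sided permutation test of 2 libraries against 2 cannot go below p = 0.333, and none was made for single miRNAs.

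Both PLA_E libraries lay above both CIA_B libraries for 42 miRNAs (11.7%) and below them for 34 (9.47%). Of these, 17 were more than 2-fold higher and 11 more than 2-fold lower by the fitted fold change. Scaled by library size alone, which moved the median log2 fold change of all miRNAs to 0.43, 80 lay above and 18 below, so the split into higher and lower depends on the scaling. Another 21 miRNAs past 2-fold overlapped between the groups. The counts of separated miRNAs in each list below are to be read against these shares of all tested miRNAs.

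miR-672-5p, a miRNA known from work on bone-forming cells, stood at 0.865 and 1.62 cpm in CIA_B and at 4.69 and 4.41 cpm in PLA_E. The groups did not overlap, and the PLA_E libraries were close to each other. These levels rest on 1 and 11 reads in CIA_B and on 35 and 16 reads in PLA_E. The fitted level was 3.26-fold higher in PLA_E, a log2 fold change of 1.71 with a standard error of 0.63 (edgeR, unadjusted p = 0.0236, adjusted p = 0.994). It lay between 1.41 and 2.37 when either library of either group was left out, and under each of these 4 omissions the p rose above 0.05. In MS_E miR-672-5p stood at 3.86 and 4.53 cpm, a log2 difference of -0.12 from PLA_E, and in PLA_A at 2.49 and 4.56 cpm. All 8 libraries after therapy of either kind were thus above the CIA_B libraries.

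miR-539-3p, a product of the imprinted Dlk1-Dio3 cluster of miRNAs, stood at 9.52 and 2.06 cpm in CIA_B and at 0.804 and 1.66 cpm in PLA_E. The groups did not overlap, but the second CIA_B library was near the PLA_E libraries and the first stood apart. The reads were 11 and 14 in CIA_B and 6 in each PLA_E library. The fitted level was 4.33-fold lower in PLA_E, a log2 fold change of -2.11 with a standard error of 0.88 (edgeR, unadjusted p = 0.0401). Without CIA_B replicate 1, the shallowest library, it was -0.87 (edgeR, unadjusted p = 0.315), and without PLA_E replicate 1 it was -1.63 (edgeR, unadjusted p = 0.181). In MS_E the levels were 2.93 and 6.24 cpm, a log2 difference of 1.94 from PLA_E (edgeR, unadjusted p = 0.0457), and MS_E overlapped with CIA_B. miR-381-3p, from the same cluster and with the same seed, stood at 41.5 and 34.7 cpm in CIA_B and at 8.58 and 24.3 cpm in PLA_E. Both PLA_E libraries were below both CIA_B libraries, with a log2 fold change of -1.22 ± 0.60 (SE) that missed the threshold (edgeR, unadjusted p = 0.0735). Leaving out PLA_E replicate 1 gave -0.65, and leaving out replicate 2 gave -2.12. miR-381-3p passed in 4 of the 16 alternatives, which are limma-voom on all libraries and on the 4, the term for the miR-1-3p split and the fit without PLA_E replicate 2, always unadjusted. miR-539-3p passed in 8, and in neither fit of limma-voom, the kind of test the study used.

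miR-34a-5p was the most abundant tested member of its family in PLA_E, at 9.52 and 17.5 cpm in CIA_B and at 27.6 and 62.3 cpm in PLA_E. The groups did not overlap, and the lower library of each group was replicate 1. The log2 fold change was 1.70 ± 0.78 (SE), a 3.25-fold higher level that missed the threshold of p narrowly in this fit (edgeR, unadjusted p = 0.0558). It passed in 7 of the 16 alternatives, among them the fit of only the 4 libraries, DESeq2 and limma-voom on the 4 libraries, always unadjusted, and lay between 1.00 and 2.23 with 1 library left out. MS_E stood at 42.3 and 29.7 cpm and PLA_A at 20.2 and 71.5 cpm, within or near the range of PLA_E. miR-34c-5p, which has the same seed and is known from ciliated epithelium, stood at 0 and 10.4 cpm in CIA_B and at 7.91 and 14.9 cpm in PLA_E. The groups overlapped. The 0 was in the shallowest library, where 3 reads would be 2.60 cpm. miR-449a-5p, the third tested miRNA with this seed, stood at 0.865 and 1.47 cpm in CIA_B and at 3.62 and 1.38 cpm in PLA_E and overlapped too.

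The slow-fibre miRNAs miR-208b-3p and miR-499-5p, which are encoded in introns of slow myosin genes, were both lower in PLA_E without passing in this fit. miR-208b-3p passed in 2 of the 16 alternatives, limma-voom and edgeR on only the 4 libraries, both unadjusted, and miR-499-5p in none. miR-208b-3p stood at 513 and 432 cpm in CIA_B and at 222 and 55.7 cpm in PLA_E. miR-499-5p stood at 313 and 153 cpm in CIA_B and at 147 and 57.4 cpm in PLA_E. Neither overlapped between the groups, although for miR-499-5p the upper PLA_E library was close to the lower CIA_B library, and by share of reads without TMM its groups overlapped. The log2 fold change of miR-208b-3p was -1.77 ± 1.05 (SE) (edgeR, unadjusted p = 0.127), and it moved between -3.08 and -1.06 with 1 library left out. For miR-499-5p it was -1.18 ± 0.81 (SE; edgeR, unadjusted p = 0.176), with -2.02 when PLA_E replicate 1 was left out and -0.61 when replicate 2 was. miR-499-3p, the minor arm, stood at 2.60 and 1.03 cpm in CIA_B and at 3.08 and 0.552 cpm in PLA_E and overlapped.

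Among the libraries 1 h after stimulation, both were below both PLA_E libraries for miR-499-5p, and they overlapped with PLA_E for miR-208b-3p. miR-208b-3p stood at 32.7 and 59.6 cpm in MS_E, a log2 difference of -1.59 from PLA_E (edgeR, unadjusted p = 0.163). miR-499-5p stood at 23.8 and 34.8 cpm in MS_E, a log2 difference of -1.81 (edgeR, unadjusted p = 0.0553). At 34 days after placebo the libraries spread widely, with 690 and 61.8 cpm of miR-208b-3p and 335 and 79.8 cpm of miR-499-5p. For both miRNAs 1 PLA_A library was thus above CIA_B and the other within the range of PLA_E, with log2 differences from PLA_E of 1.43 and 1.02 (edgeR, unadjusted p = 0.201 and 0.236). At 34 days after stimulation MS_A stood at 247 and 83.1 cpm of miR-208b-3p and at 156 and 55.9 cpm of miR-499-5p, overlapping with PLA_E. The skeletal muscle list (miR-1, miR-133a, miR-133b and miR-206) did not share this direction as a set, with 3 fold changes above 0 and 3 under 0. The 6 tested members of the skeletal muscle list had a median log2 fold change of -0.004, with 0 of 6 separated between the groups and 0 called. miR-133a-3p stood at 117214 and 77100 cpm in CIA_B and at 70505 and 118939 cpm in PLA_E, and miR-133b-3p at 4019 and 2479 cpm and at 5048 and 3207 cpm. Both overlapped between the groups. Scaled by library size alone, the median was -0.60 for the 3 slow-fibre arms and 0.72 for the 6 skeletal muscle arms, beside 0.43 for all miRNAs, so the place of the skeletal muscle list above or below 0 depends on the scaling and that of the slow-fibre list does not.

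**Figure D2:**
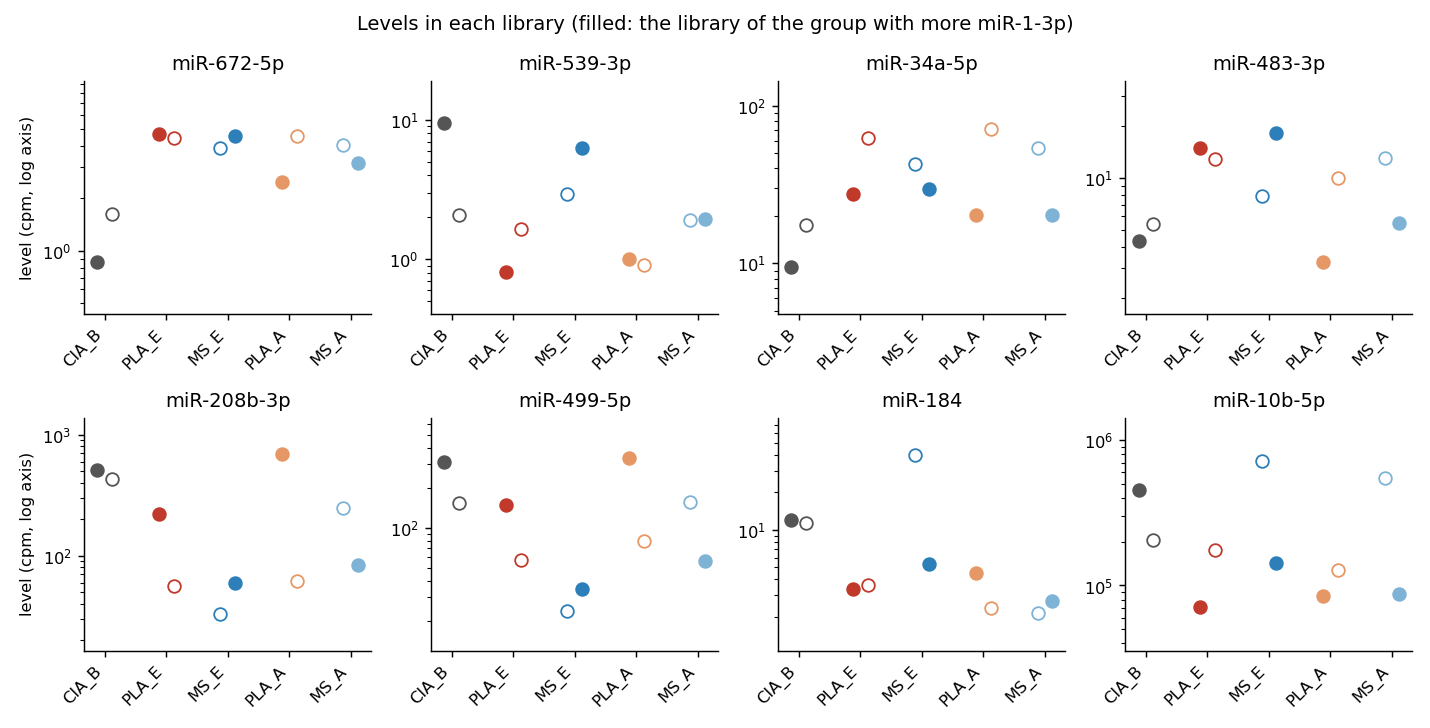
Levels of 8 miRNAs in each library (cpm, log axis) in the 5 groups, 2 points a group, filled for the library of the group with more miR-1-3p. Both PLA_E points lie above both CIA_B points for miR-672-5p, miR-34a-5p and miR-483-3p and below them for the other 5, and miR-184 is at 39.8 cpm in 1 MS_E library.

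miR-184 and miR-483-3p had close replicates in both groups and were among the miRNAs of small p. miR-184, known from the epithelium of eye and skin, stood at 12.1 and 11.5 cpm in CIA_B and at 3.35 and 3.59 cpm in PLA_E. In the fit it was 3.38-fold lower, a log2 fold change of -1.76 ± 0.85 (SE) (edgeR, unadjusted p = 0.0694), and it kept between -1.80 and -1.71 with 1 library left out. The standard error came from the spread in all groups, including 39.8 and 5.31 cpm in MS_E, and with only the 4 libraries in the fit the p was 0.0200 (edgeR). The MS_E level differed from PLA_E by 2.70 on the log2 scale (edgeR, unadjusted p = 0.0120, adjusted p = 0.832), and this rests on the first MS_E library. miR-483-3p, encoded in an intron of the insulin-like growth factor gene Igf2, stood at 4.33 and 5.44 cpm in CIA_B and at 14.9 and 13.0 cpm in PLA_E. The groups were well apart, with a log2 fold change of 1.48 ± 0.74 (SE; edgeR, unadjusted p = 0.0756), but PLA_A stood at 3.24 and 10.0 cpm and overlapped with CIA_B. miR-324-3p stood at 3.46 and 2.65 cpm in CIA_B and at 6.83 and 7.45 cpm in PLA_E, with a log2 fold change of 1.26 ± 0.59 (SE; edgeR, unadjusted p = 0.0599).

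The abundant miRNAs divided the reads differently. The 5 miRNAs with the highest mean level in the 4 libraries (miR-10b-5p, miR-22-3p, miR-133a-3p, miR-143-3p and miR-26a-5p) held 62.1% and 62.8% of all miRNA reads in CIA_B and 48.2% and 58.0% in PLA_E. miR-10b-5p, encoded in the HoxD cluster and high in posterior body tissue, took 34.5% and 21.9% of the reads in CIA_B and 10.0% and 17.0% in PLA_E. In cpm it stood at 452283 and 205315 in CIA_B and at 70918 and 174440 in PLA_E, so that both PLA_E libraries were lower. The log2 fold change was -1.42 ± 1.01 (SE; edgeR, unadjusted p = 0.191), and MS_E, at 713499 and 143090 cpm, lay on both sides. The fold change moved between -2.16, without PLA_E replicate 2, and -0.83, without CIA_B replicate 1. miR-26a-5p, a miRNA raised in muscle differentiation, stood at 89340 and 114685 cpm in CIA_B and at 56454 and 52220 cpm in PLA_E. This is a 1.88-fold lower level (log2 fold change -0.91 ± 0.46 SE; edgeR, unadjusted p = 0.0777). By share of reads, without TMM, miR-26a-5p took 6.82% and 12.2% in CIA_B and 7.98% and 5.08% in PLA_E, so the groups overlapped and the PLA_E libraries were not close. miR-23b-3p stood at 1889 and 2274 cpm in CIA_B and at 1263 and 1228 cpm in PLA_E, and miR-195-5p at 877 and 624 cpm and at 503 and 401 cpm. Both were separated between the groups at under 2-fold, and by share of reads both overlapped. Of the 56 miRNAs named by the rules given below, 12 were separated with PLA_E lower. Of these, 6 overlapped by share of reads (miR-181d-5p, miR-195-5p, miR-23b-3p, miR-26a-5p, miR-362-5p and miR-499-5p). The 15 of the 56 separated with PLA_E higher remained so. Without TMM the median log2 fold change of all miRNAs was 0.43, which by itself favours separation with PLA_E higher. Outside the 56, miR-141-3p and miR-150-3p were separated with PLA_E higher and overlapped by share of reads. miR-22-3p and miR-143-3p overlapped between the groups.

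Of the 8 tested inflammation-induced miRNAs, 4 were higher in both PLA_E libraries than in both CIA_B libraries, 0 were lower and 0 were called, against 11.7% and 9.47% of all tested miRNAs. The median log2 fold change of the list was 0.37, beside 0.07 for all tested miRNAs. miR-21-5p, a miRNA induced in wounds and fibrosis, stood at 1461 and 3066 cpm in CIA_B and at 4973 and 4060 cpm in PLA_E. The log2 fold change was 1.00 ± 0.53 (SE; edgeR, unadjusted p = 0.0934), between 0.48 and 1.63 without CIA_B replicate 1 or 2, and the groups were separated. The other arm of this hairpin, miR-21-3p, stood at 6.92 and 12.4 cpm in CIA_B and at 34.0 and 19.0 cpm in PLA_E, with a log2 fold change of 1.42 ± 0.75 (SE; edgeR, unadjusted p = 0.0908). Both arms thus lay in the same order of the groups. The miRNAs induced through NF-kB gave smaller differences, miR-146a-5p with 960 and 1053 cpm in CIA_B and 1062 and 1246 cpm in PLA_E, and miR-146b-5p with 1819 and 1730 cpm and 2644 and 1787 cpm. miR-146a-5p was separated between the groups by little, and miR-132-3p, induced by CREB signalling, likewise, with 12.1 and 13.2 cpm against 14.3 and 19.6 cpm. miR-147, induced in macrophages by Toll-like receptors, stood at 0 and 0.588 cpm in CIA_B and at 2.55 and 0.552 cpm in PLA_E and overlapped.

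Leukocyte miRNAs were summed to 724 and 612 cpm in CIA_B and to 1667 and 751 cpm in PLA_E over the 8 members, all of them tested. Of these, 3 were separated with PLA_E higher (miR-142-3p, miR-142-5p and miR-150-3p, the last not by share of reads) and 0 with PLA_E lower, and the median log2 fold change was 0.85. The fold change was above 0 for 5 members and under 0 for 3, with log2 values of -0.47 for miR-223-5p, -0.23 for miR-342-3p and -0.59 for miR-342-5p. miR-142-3p, made in all blood cell lineages, stood at 4.33 and 5.0 cpm in CIA_B and at 49.7 and 7.17 cpm in PLA_E. The high value was in PLA_E replicate 1 only. The log2 fold change of 2.59 ± 1.36 (SE; edgeR, unadjusted p = 0.0891) went to 0.60 without that library. Its other arm miR-142-5p stood at 101 and 209 cpm in CIA_B and at 372 and 240 cpm in PLA_E. miR-223-3p, the myeloid marker, stood at 10.4 and 28.1 cpm in CIA_B and at 52.0 and 25.1 cpm in PLA_E, and the lymphocyte miRNA miR-150-5p at 572 and 343 cpm and at 1155 and 456 cpm. Both overlapped between the groups, with the highest level again in PLA_E replicate 1. Over the pair of libraries with more miR-1-3p the median log2 difference of the list was 1.37, and over the pair with less it was -0.05. At 34 days miR-142-3p stood at 636 and 30.8 cpm in PLA_A, a log2 difference of 3.54 from PLA_E (edgeR, unadjusted p = 0.0272, adjusted p = 0.999). PLA_A replicate 1 stood apart in miR-142, miR-150 and miR-342 but not in the myeloid miR-223-3p, which was at 43.3 cpm there and at 45.9 cpm in replicate 2. The list summed to 13084 cpm in PLA_A replicate 1, to 1170 cpm in PLA_A replicate 2 while the sums of the other 8 libraries lay from 612 to 1825 cpm.

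The blood and epithelial markers also moved with single libraries. Erythroid miRNAs summed to 24.2 and 17.5 cpm in CIA_B and to 39.7 and 17.4 cpm in PLA_E, with 0 of 3 tested members separated. Red-cell miR-451-5p stood at 19.9 and 12.9 cpm in CIA_B and at 24.8 and 14.3 cpm in PLA_E, with overlap. miR-144-3p stood at 0.865 and 1.76 cpm in CIA_B and at 9.65 and 0.828 cpm in PLA_E, again high in PLA_E replicate 1 alone. Epithelial miRNAs summed to 33.7 and 75.3 cpm in CIA_B and to 113 and 59.9 cpm in PLA_E. Of 7 tested members 2 were separated, miR-200b-3p and miR-141-3p, the latter not by share of reads. All 7 fitted log2 fold changes were above 0, with a median of 0.73. The median log2 difference was 1.71 over the pair of libraries with more miR-1-3p and -0.15 over the pair with less. miR-205, a keratinocyte miRNA and the most abundant of the list over the 10 libraries, stood at 17.3 and 32.5 cpm in CIA_B and at 61.4 and 22.3 cpm in PLA_E. For miR-200b-3p and miR-200c-3p both CIA_B libraries were at the floor, with 0 and 1 reads. miR-200b-3p had 17 and 2 reads in PLA_E, a mean level under the CIA_B floor of 1.52 cpm, so no fold is given. miR-200c-3p had 31 and 0 reads and was at least 1.37-fold higher as a mean, from PLA_E replicate 1 alone. The part of skin, blood or leukocyte content of that library in the levels above was not tested.

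Lists of other cell types showed little. The endothelial list had a median log2 fold change of -0.06 with 1 of 5 separated, the fibroblast list of -0.01 with 0 of 3, the smooth muscle list of 0.15 with 1 of 4, and the adipose and metabolic list of 0.11 with 0 of 6. In the endothelial list miR-126a-5p stood at 11893 and 7037 cpm in CIA_B and at 7780 and 10358 cpm in PLA_E, and in the fibroblast list miR-199a-3p at 1306 and 3024 cpm and at 2324 and 2136 cpm. Both overlapped. The endothelial miR-221-3p stood at 20.8 and 47.3 cpm in CIA_B and at 53.9 and 41.7 cpm in PLA_E, and the smooth muscle miR-143-5p at 6.06 and 5.88 cpm and at 6.43 and 8.55 cpm. Only the latter was separated, by little. In the adipose and metabolic list miR-378a-3p, encoded in the gene of the coactivator PGC-1beta, stood at 34729 and 52972 cpm in CIA_B and at 35418 and 74147 cpm in PLA_E. miR-193-3p of this list was at 85.1 cpm in PLA_E replicate 1, at 1.66 cpm in PLA_E replicate 2, and at 7.79 and 3.38 cpm in CIA_B. Hypoxia-induced miR-210-3p stood at 28.6 and 26.0 cpm in CIA_B and at 26.5 and 33.7 cpm in PLA_E, and its other arm miR-210-5p at 3.46 and 2.35 cpm and at 0.804 and 2.76 cpm, both with overlap. miR-9a-5p, abundant in brain, stood at 6.92 and 19.1 cpm in CIA_B and at 12.6 and 14.9 cpm in PLA_E. miR-375-3p, known from endocrine and gut epithelium, stood at 0 and 1.47 cpm in CIA_B and at 3.89 and 2.76 cpm in PLA_E.

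**Figure D3:**
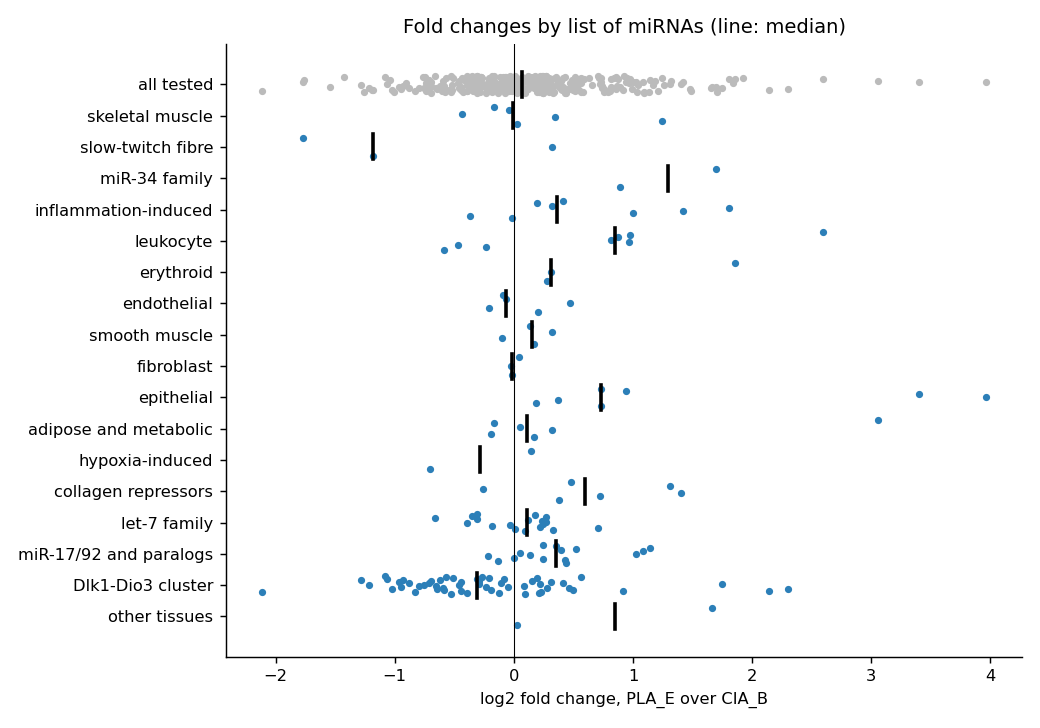
Fitted log2 fold change of PLA_E over CIA_B for the members of each list and for all 359 tested miRNAs (grey), with the median as a black line. The slow-twitch fibre list lies lowest with a median of -1.18 and the miR-34 family highest with 1.29, and the values above 3 in the epithelial list are miR-200b-3p and miR-200c-3p, which were at the floor in CIA_B and have no interpretable fold. The lowest and highest lists hold 3 and 2 tested arms and include miR-208b-3p and miR-34a-5p, which the study chose on these libraries.

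The miR-29 family, which represses collagen messages, gave 3 of 6 tested members separated with PLA_E higher and 0 lower, with a median log2 fold change of 0.60. The 3 members with the same seed are the 3p arms shown above. miR-29a-3p stood at 996 and 1162 cpm in CIA_B and at 1606 and 1402 cpm in PLA_E. miR-29c-3p stood at 277 and 225 cpm in CIA_B and at 551 and 277 cpm in PLA_E, so that its lower PLA_E library and its upper CIA_B library were level at these digits although it counts as separated. The median log2 difference of the list was 0.84 over the pair of libraries with more miR-1-3p and 0.20 over the pair with less. miR-29b-3p stood at 23.4 and 19.6 cpm in CIA_B and at 91.0 and 21.5 cpm in PLA_E, so the groups overlapped and its log2 fold change of 1.40 ± 0.66 (SE; edgeR, unadjusted p = 0.0620) went to 0.01 without PLA_E replicate 1. In PLA_A, miR-29b-3p was at 65.5 and 75.3 cpm and miR-29a-3p at 1746 and 2207 cpm, above CIA_B in both libraries. These sequences differ in few bases, and reads may be shared between them.

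In the miR-17/92 cluster and its paralogs, known for promoting cell division, 4 of 15 tested members were separated with PLA_E higher, 0 with PLA_E lower, and 12 of 15 had a fold change above 0 (median log2 0.35). The 4 members with the seed AAAGUGC (miR-17-5p, miR-20a-5p, miR-93-5p and miR-106b-5p) had a median log2 fold change of 0.48 and are also near in sequence. miR-20a-5p stood at 8.65 and 11.2 cpm in CIA_B and at 25.5 and 15.4 cpm in PLA_E, and was separated (log2 fold change 1.03 ± 0.53 SE; edgeR, unadjusted p = 0.0827). The more abundant miR-93-5p stood at 198 and 212 cpm in CIA_B and at 286 and 270 cpm in PLA_E, with close libraries in both groups. miR-92a-3p, the most abundant of the list over the 10 libraries, stood at 564 and 890 cpm in CIA_B and at 782 and 1178 cpm in PLA_E and overlapped. miR-17-1-3p had the largest fold change of the list, with 1.73 and 2.50 cpm in CIA_B and 6.43 and 3.31 cpm in PLA_E.

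The let-7 family, which rises with differentiation, had 18 tested members, of which 1 was separated with PLA_E higher and 3 with PLA_E lower. The 8 members with the seed GAGGUAG had log2 fold changes between 0.01 and 0.27, among them let-7f-5p with 7801 and 12653 cpm in CIA_B and 10464 and 13410 cpm in PLA_E. These are near the median of all miRNAs, 0.07. let-7i-3p moved most in the list, from 4.33 and 4.56 cpm in CIA_B to 10.0 and 4.41 cpm in PLA_E, with overlap. The 4 5p arms of the miR-181 family, with the seed ACAUUCA, had log2 fold changes between -0.71 and -0.09, led by miR-181d-5p with 139 and 175 cpm in CIA_B and 73.0 and 119 cpm in PLA_E. miR-181d-5p was separated between the groups, but not by share of reads. With library size alone 2 of the 4 were above 0, and all 4 stayed under the median of all miRNAs. Counts of both families may share reads between near-identical members. Across the 101 hairpins with both arms tested, 63 had arms on the same side of 0.

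The Dlk1-Dio3 cluster, an imprinted locus whose miRNAs are transcribed from the maternal chromosome and are high in young and regenerating muscle, had 91 members in the files, of which 55 were tested. Of the 55, 11 were separated with PLA_E lower and 5 with PLA_E higher, and 38 had a fold change under 0 (median log2 -0.31). Beside miR-539-3p and miR-381-3p, the lower members included miR-434-3p, with 932 and 629 cpm in CIA_B and 454 and 577 cpm in PLA_E. miR-299a-3p stood at 4.33 and 6.62 cpm in CIA_B and at 2.14 and 3.31 cpm in PLA_E. Among the higher members were miR-380-3p, with 0 and 1.32 cpm in CIA_B and 2.95 and 3.59 cpm in PLA_E, and miR-485-3p, with 0 and 2 reads in CIA_B and 7 and 6 in PLA_E. Both are at or near the floor in CIA_B. miR-127-3p, the most abundant member over the 10 libraries, stood at 2542 and 2408 cpm in CIA_B and at 1166 and 2948 cpm in PLA_E, on both sides of CIA_B. In the pair of libraries with more miR-1-3p the median log2 difference of the cluster was -0.85, and in the pair with less it was 0.21. The lower median was thus seen in replicates 1 and not in replicates 2. Scaled by library size alone, 28 of 55 members had a fold change above 0, because all miRNAs shifted up by 0.37 on the log2 scale, and relative to the median of all miRNAs the cluster was then at -0.43, beside -0.37 with TMM.

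**Figure D4:**
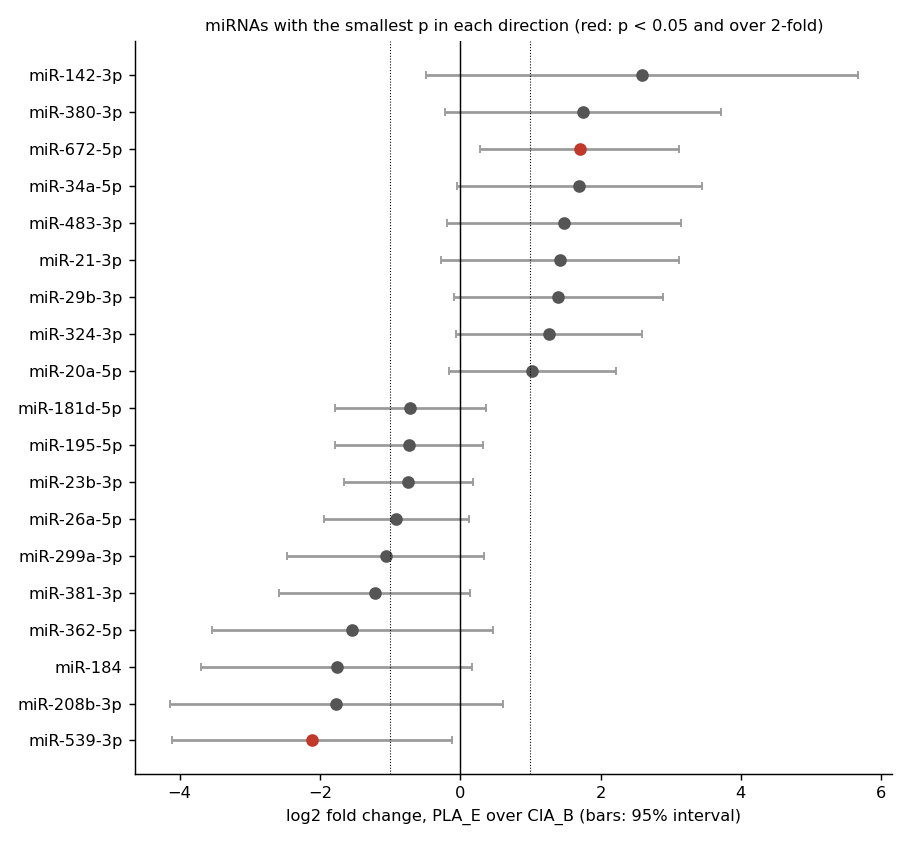
Fitted log2 fold changes of PLA_E over CIA_B with 95% intervals for the miRNAs with the smallest p in each direction, apart from miR-200b-3p, which was at the floor in CIA_B. The intervals of miR-672-5p and miR-539-3p (red) end at 0.29 and -0.12, and those of the other miRNAs cross 0.

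Because replicate 1 of both groups had much miR-1-3p and replicate 2 little, the groups were also compared library by library at like levels of miR-1-3p, which miR-206-3p and miR-133b-3p followed and miR-133a-3p did not. Nothing in the labels ties libraries of the same number together, so these are descriptions of 2 pairs of libraries. In the pair with more miR-1-3p 105 of the 359 miRNAs differed more than 2-fold in log2(cpm + 1), and in the pair with less 23 did. In both pairs, 4 miRNAs were more than 2-fold higher in PLA_E (miR-34a-5p, miR-483-3p, miR-582-3p and miR-672-5p), 3 more than 2-fold lower (miR-184, miR-208b-3p and miR-499-5p), and 5 went opposite ways. The log2 differences of miR-34a-5p were 1.44 and 1.78 in these pairs, those of miR-483-3p 1.58 and 1.12, and those of miR-672-5p 1.61 and 1.05. Those of miR-208b-3p were -1.21 and -2.93, of miR-499-5p -1.08 and -1.40, and of miR-184 -1.59 and -1.44. miR-582-3p stood at 0.865 and 9.41 cpm in CIA_B and at 6.43 and 26.2 cpm in PLA_E, so that it was higher in each pair although the groups overlapped. miR-539-3p differed by -2.54 in the first pair and by -0.20 in the second.

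**Figure D5:**
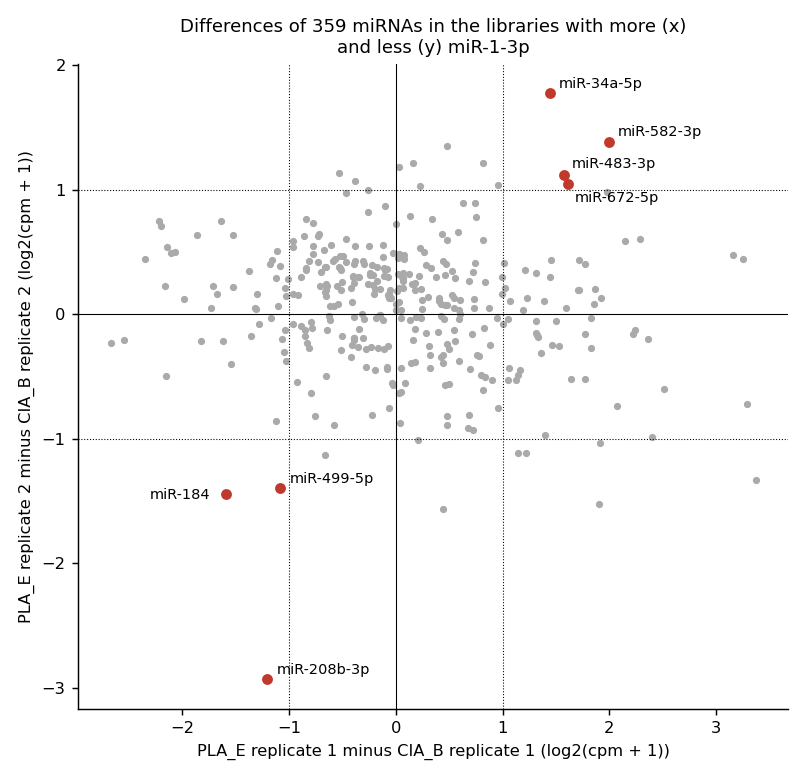
Difference of PLA_E from CIA_B for 359 miRNAs in the libraries with more miR-1-3p (x axis, replicates 1) and with less (y axis, replicates 2), in log2(cpm + 1), with dotted lines at 2-fold. The 7 labelled miRNAs are past 2-fold the same way in both, 4 higher and 3 lower, and the spread along the x axis is wider, with 105 miRNAs past 2-fold against 23.

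Beside the tested miRNAs, 220 were detected but too low for the test. Only 2 of them had at most 3 reads in each CIA_B library and more than 3 in each PLA_E library, and 0 the reverse. miR-146b-3p had 1 and 2 reads in CIA_B and 6 and 5 in PLA_E, and miR-16-3p had 0 and 1 reads and 4 in each PLA_E library. With such counts, and with the shallowest library in CIA_B, neither count shows a difference in level.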

How the data were processed

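Small RNA was sequenced from the tissue of CIA rats, in 10 libraries of 5 groups. The authors prepared TruSeq small RNA libraries, processed the reads with CASAVA 1.8 and Bowtie on rn4 and counted them per miRNA, and they deposited whole read counts without normalization, 1 file per library. Another table, with 20 columns of values that could not be matched to a label by name, was left out. The study's methods add that adapters were trimmed, short reads discarded and reads mapped and quantified by miRDeep2 on the rat sequences of miRBase. Sequences are from RefSeq (GRCr8), another build than rn4, so no coordinates are given.

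From the deposited counts, the largest count over the precursors was taken for the 34 miRNAs with several. A miRNA was kept where 5 or more libraries held it at 1 cpm or more, and the counts were scaled by TMM and tested with the quasi-likelihood test of edgeR 4.0.16 in R 4.3.3, with all 10 libraries in 1 fit. Adjusted p-values are Benjamini-Hochberg over the 359 tested miRNAs. limma 3.58.1 (voom) and DESeq2 1.42.0 were alternatives. The tests were also run on simulated counts, whose outcome is not given here. The counts of the 2 libraries of CIA_B and of PLA_E differed by a chi-square of 1471 and 2195 per degree of freedom, so they are not repeats of 1 library. Where all libraries of a group had at most 3 reads, the report gives no fold or only a lower bound against 3 reads, while list medians and counts of fold changes use the fitted values. Single libraries were left out in turn.

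The 17 lists and the members named were chosen with earlier results of these data known. The named miRNAs are miR-34a-5p and miR-208b-3p, which the study lists for this comparison and chose on these libraries, those passing the thresholds, the 10 of smallest p in each direction, the most abundant and the most different of each list, the muscle, slow-fibre and miR-34 arms and the 5 most abundant. Others were named after their values were seen, as members of a list, of a pair or of a seed family. Python 3.11.15 with pandas 2.3.3 and matplotlib 3.10.9 was used for the summaries and plots.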

Additional observations from a re-analysis of the deposited data

How the results depend on the processing

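The depth of CIA_B replicate 1 and the 2 libraries per group limit the comparison, and no alternative gave an adjusted p under 0.05. The count of 2 differential miRNAs was 5 with limma-voom on the 4 libraries, 5 with DESeq2, 4 with library size only, 6 with only the 4 libraries in the edgeR fit, 9 with a term for the miR-1-3p split of the libraries and 1 to 9 with single libraries left out. DESeq2's size factors and summed counts gave the same 2. The 3 other filters also gave 2, but not this pair: miR-142-3p and miR-539-3p with no filter, miR-34a-5p and miR-21-5p at a mean of at least 100 counts, and miR-539-3p and miR-324-3p at 1 cpm in each of the 4 libraries. limma-voom on all libraries gave 3, miR-672-5p, miR-381-3p and miR-380-3p. Of the 16 alternatives, miR-672-5p passed in 6, miR-539-3p in 8, miR-34a-5p in 7 and miR-142-3p, miR-21-5p and miR-381-3p in 4 each. The cause of these shifts was not tested.

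The replicate numbers share only a number: the deviations of CIA_B and PLA_E from their group means correlated with r = 0.23, and those of other pairs of groups with r from -0.54 to 0.59. The fit with the replicate block called 1 miRNA, miR-672-5p.

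Library size only gave 80 separated miRNAs above and 18 below. With 1 library left out, 184 to 247 were separated, 111 to 127 above and 73 to 120 below, since 1 library against 2 overlaps less often by construction.

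Over all 56 named miRNAs, the log2 fold change turned sign for 23 with 1 library left out and for 9, all among those 23, under another alternative. Of these 23, 16 are given in the report by their levels only, and 7 belong to the miRNAs followed singly here, of which 6 turned only with 1 library left out. The miRNAs followed singly are those called, of smallest p or of largest change in a list and 5 others. This set was narrowed from all 56 after the sign changes had been seen, which left most of them out. With 1 library left out, let-7i-3p ranged from -0.016 to 1.18, miR-133b-5p from -2.23 to 2.09, miR-144-3p from -0.82 to 2.67, miR-193-3p from -1.64 to 4.06, miR-221-3p from -0.060 to 1.20 and miR-199a-3p from -0.52 to 0.77. The fitted value of miR-200c-3p went from -2.58 to 6.56, but this miRNA was at the floor in CIA_B, so these values depend on the fit and are no estimates of its fold. miR-199a-3p was also at -0.0002 with DESeq2 and at -0.0001 with its size factors in edgeR. Over all 56, 51 of 861 values under the alternatives had the other sign, 756 kept their direction and their side of the threshold, 39 passed only under the alternative and 15 only in the fit reported. Over the narrowed set it was 10 of 577 for the sign and 513 for direction and side. The miRNAs tested between PLA_E and the later or treated groups were also narrowed after their sign changes were seen. Over all 56, 52 of 749 values turned sign in MS_E against PLA_E and 64 of 749 in PLA_A against PLA_E, and none did among the miRNAs whose fold change is given.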
